A study of Mus musculus with 48 samples.

Results

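The genes described here are the 8 that encode primary granule and lysozyme proteins: Mpo, Elane, Prtn3, Ctsg, Ms4a3, Lyz1, Lyz2 and Srgn. They were taken by symbol from a table of 24062 genes, and all 8 were in it. Levels are given as CPM, the counts of a gene per 1000000 counts of the cell after TMM scaling. A filter on low values kept 8601 genes, those found in 10 or more cells with an average of 5 CPM or more, and 8 of 8 members passed it. The data are RNA sequencing counts of 48 mouse fetal liver cells, processed singly, labelled embryonic day 14.5 (the protocol in the labels spans E14.5 to E15.5) and all labelled BFU-E, the burst-forming erythroid progenitor. Per the labels' protocols, cells carrying CD34, CD41, CD16/CD32, Mac-1, Gr-1, Ter119, Sca-1, B220 or CD3 were removed, c-Kit was selected for and the 10% lowest in CD71 were sorted. Genotype and strain are not given in the sources used here, and no animal, litter or chip is named, so the 48 cells are 1 sample and no value below carries a p-value. The cells had 246007 to 3211186 counts (median 1915270), and 5180 to 7935 genes were read per cell. Reads carry no molecular identifiers, so intervals and limits cover counting error only.

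Primary (azurophil) granules are the first granules made as a bone marrow or fetal liver progenitor turns into a neutrophil or monocyte, at the promyelocyte stage. Myeloperoxidase and a set of serine proteases are packed into them on a scaffold of the proteoglycan serglycin, and lysozyme joins them and also fills later granules and the secretory path of macrophages. Cells of the red line carry Gata1, the erythroid master regulator, and are not known for granule proteins. The members were therefore read along the cells ranked by Mpo, and in the cells with Gata1 of at least 10 CPM.

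The label BFU-E was matched by a part of the cells, and how many depended on the gene. Gata1 reached 10 CPM in 28 of 48 cells and Kit, the receptor of the sort, in 38. Klf1 and Epor, genes of the erythroid path, reached it in 16 and 10, and Car2 in 35. The 13 erythroid genes listed here ranged from 7 cells for Rhd to 36 for Nfe2. The other 20 cells had 0 to 9.31 CPM of Gata1, against 16.3 CPM in the lowest of the 28, a step of 0.75 on the log2(CPM + 1) scale. Wider steps lay between 2.29 and 5.50 CPM and between 22.5 and 49.9 CPM, so the limit marks no distinct gap. Of these 20 cells, 2 held 17469 and 18075 CPM summed over the macrophage markers C1qa, C1qb, C1qc, Timd4 and Vsig4. The sum was at most 386 CPM in the other 46 cells, and at most 22.9 CPM in all but 1 of them. These 2 cells are called macrophage-rich here, and the main results on the members that rest on them are given with and without them. The nearest genes and the highest levels of other genes are named with these 2 cells included.

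The 5 granule genes lie on 4 chromosomes of GRCm38, and the lysozyme pair and Srgn on chromosome 10. Mpo, which makes hypochlorous acid from hydrogen peroxide, is on chromosome 11 (87793581 to 87804413, plus strand). Prtn3, proteinase 3 (79874476 to 79883174), and Elane, neutrophil elastase (79886247 to 79888215), stand next to each other on the plus strand of chromosome 10, with 3072 bases between them. Ctsg, cathepsin G, is on chromosome 14 (56099881 to 56102574, minus strand), and Ms4a3, a membrane protein of granulocyte and monocyte progenitors, on chromosome 19 (11629496 to 11640851, minus strand). Lyz1 (117287797 to 117292868) and Lyz2 (117277331 to 117282321), both on the minus strand of chromosome 10, are neighbours with 5475 bases between them. Srgn, serglycin, is on the same strand (62493833 to 62527451). The antisense gene Gm11505 overlaps Mpo and holds 323 of the 2701 stretches of 50 bases of the Mpo transcript; it was not analysed here, and whether the counting used strand is not given in the sources used here. No stretch of 50 bases of Elane, Prtn3, Ctsg, Ms4a3 or Srgn was found in a transcript of another gene.

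The 5 granule genes are the ones followed along the Mpo ranking, so their promoters are shown, the 250 bases before the start that RefSeq annotates (GRCm38.p6). Capitals mark GGAAGT, the core that the myeloid factor PU.1 prefers, on the strand of the gene.
Mpo (chr11:87793534-87793783, plus strand): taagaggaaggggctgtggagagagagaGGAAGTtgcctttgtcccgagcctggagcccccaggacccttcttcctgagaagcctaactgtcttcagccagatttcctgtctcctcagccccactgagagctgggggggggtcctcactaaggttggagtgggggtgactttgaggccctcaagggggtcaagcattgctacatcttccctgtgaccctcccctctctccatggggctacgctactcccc
Prtn3 (chr10:79879417-79879666, plus strand): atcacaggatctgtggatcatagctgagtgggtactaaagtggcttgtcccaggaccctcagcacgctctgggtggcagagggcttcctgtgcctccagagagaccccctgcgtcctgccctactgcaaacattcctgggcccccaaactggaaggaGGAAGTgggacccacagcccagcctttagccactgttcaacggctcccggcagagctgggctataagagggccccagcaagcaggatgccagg
Ctsg (chr14:56102575-56102824, minus strand): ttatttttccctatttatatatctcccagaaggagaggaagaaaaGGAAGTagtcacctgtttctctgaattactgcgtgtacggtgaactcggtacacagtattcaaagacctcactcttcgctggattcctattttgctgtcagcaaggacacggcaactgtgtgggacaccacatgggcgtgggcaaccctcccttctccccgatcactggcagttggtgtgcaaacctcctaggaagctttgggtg
Elane (chr10:79886062-79886311, plus strand): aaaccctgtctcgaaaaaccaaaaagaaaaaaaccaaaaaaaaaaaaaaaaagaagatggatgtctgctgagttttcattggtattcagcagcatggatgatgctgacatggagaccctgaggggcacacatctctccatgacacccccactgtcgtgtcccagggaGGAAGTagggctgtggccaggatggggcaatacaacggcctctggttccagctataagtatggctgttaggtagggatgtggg
Ms4a3 (chr19:11640852-11641101, minus strand): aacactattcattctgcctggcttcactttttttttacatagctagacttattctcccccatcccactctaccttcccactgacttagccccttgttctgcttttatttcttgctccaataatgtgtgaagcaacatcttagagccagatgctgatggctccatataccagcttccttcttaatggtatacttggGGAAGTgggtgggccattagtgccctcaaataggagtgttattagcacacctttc
In the windows of the 5 granule genes GGAAGT ran in the direction of the gene, and in those of Lyz1, Lyz2 and Srgn it stood on the opposite strand, so 8 of 8 members held it. It was in 19.7% of 32851 promoter windows of the same length. Of the other motifs searched on both strands, TTGCNNAA of C/EBP factors was in 1 of 8 members (Lyz1) and in 9.56% of all windows. TGTGGT of RUNX factors was in 2 of 8 (Ctsg and Lyz2) and in 4614 of the 32851 windows, and AGATAA of GATA factors in 0 of 8 and in 9.99%. The letters were chosen with these windows in view, the 4 motifs share no overlapping match in the members, and a match is a description, not a site.

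Mpo was by far the most read granule gene and spread the widest. It was read in all 48 cells, from 1.32 CPM through a median of 169 CPM to 53282 CPM. It reached 10 CPM in 42 cells, 100 CPM in 27 and 1000 CPM in 18. Its levels formed a continuum, since the widest step between neighbouring cells, 0.96 on the log2(CPM + 1) scale, lay at the very bottom, between 1.32 and 3.52 CPM.

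Prtn3 came next in number of cells. It ran from 0 through a median of 10.5 CPM to 3730 CPM, was read in 44 cells and reached 10 CPM in 24 and 100 CPM in 17. Its median was 21.1 CPM without the macrophage-rich cells. Ctsg ran from 0 through 1.98 CPM to 3580 CPM and reached 10 CPM in 13 cells and 100 CPM in 11. Elane ran from 0 through 2.71 CPM to 10892 CPM and reached 10 CPM in 13 cells and 100 CPM in 8. Ms4a3 ran from 0 through 0.718 CPM to 2758 CPM and reached 10 CPM in 11 cells and 100 CPM in 8. In contrast to Mpo, the levels of Ctsg, Elane and Ms4a3 broke into low and high cells. The widest step of Prtn3 was narrower, 1.35, between 11.4 and 30.8 CPM. Elane had the widest step, 3.69 on the log2(CPM + 1) scale, with 40 cells at 49.2 CPM or less and 8 cells at 647 CPM or more. The step of Ctsg, 2.35, parted 37 cells at 69.6 CPM or less from 11 at 358 CPM or more. That of Ms4a3, 1.82, parted 37 cells at 4.43 CPM or less from 11 at 18.1 CPM or more.

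Per length of exon, Srgn fell behind Ctsg and Prtn3, and the other members kept their order by CPM. Lengths were unions of all annotated exons. For Prtn3 and Ms4a3 these were 1732 and 1884 bases, against 1025 and 1010 in their longest coding transcripts, which lowers their values. In the 7 cells with Mpo of at least 10000 CPM, Mpo averaged 7934 ± 3776 CPM per kilobase (SD over cells, n = 7), and Elane 3240 ± 3568. Ctsg followed with 1491 ± 1010, Prtn3 with 836 ± 620, Srgn with 815 ± 535, Ms4a3 with 563 ± 509 and Lyz2 with 381 ± 250, and Lyz1 had 50.0 ± 31.6. Each neighbour from Elane to Lyz2 in that order differed by less than the spread between cells. Elane was second in these cells, by CPM as well (3188 CPM), although fewer cells reached 100 CPM of it than of Prtn3 or Ctsg.

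**Figure D1:**
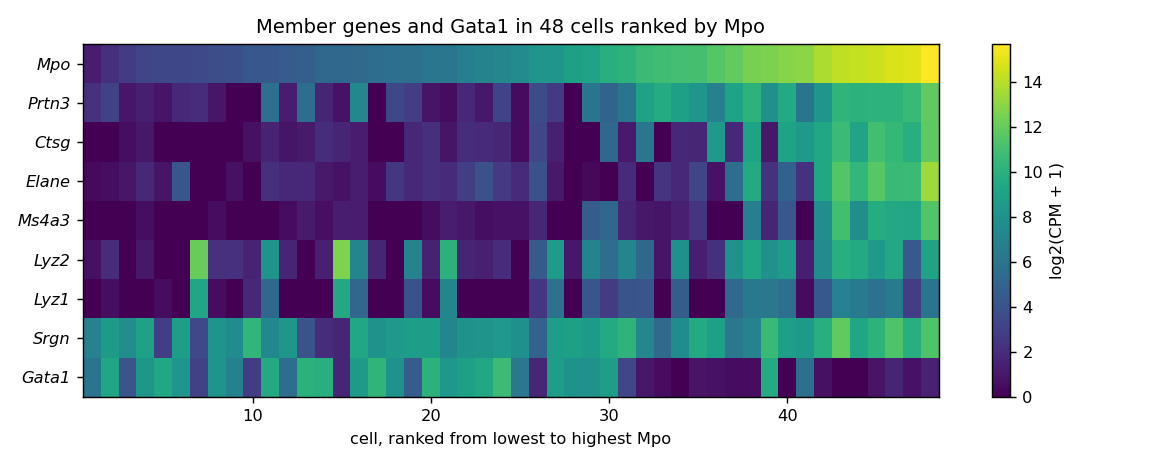
Level of each member and of Gata1 as log2(CPM + 1), by colour, in 48 cells ranked from lowest to highest Mpo. Prtn3 is high from about the cell with 529 CPM of Mpo upward, Ctsg, Elane and Ms4a3 in fewer cells at the right end, and Lyz2 in cells all along the ranking, with its highest levels in the 2 macrophage-rich cells at ranks 7 and 15.

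Along the Mpo ranking, Prtn3 was the first of the other granule genes to reach 10 CPM in every cell above it. From the cell with 529 CPM of Mpo upward, all 20 cells held at least 10 CPM of Prtn3. Ctsg was held at 10 CPM without a gap from 7473 CPM of Mpo upward, by 9 cells. Elane and Ms4a3 were held so from 14224 CPM of Mpo upward, by 7 cells each. At 100 CPM such a run was 9 cells long for Ctsg and 7 for each of Prtn3, Elane and Ms4a3. The lowest Mpo level beside which each gene was found at 100 CPM was 42.4 CPM for Prtn3, 3025 CPM for Ctsg and 5709 CPM for both Elane and Ms4a3. At 10 CPM it was 9.73 CPM for Elane, 18.4 CPM for Prtn3, 529 CPM for Ms4a3 and 935 CPM for Ctsg, so Elane was lowest by this measure. The lowest cell for Elane and Ms4a3 at 100 CPM was the same cell, and it held all 5 granule genes.

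The cells were also counted in bins of 12, from the lowest Mpo to the highest. At 100 CPM, Prtn3 was held by 0, 1, 5 and 11 of 12 cells, Ctsg by 0, 0, 1 and 10, and Elane and Ms4a3 each by 0, 0, 0 and 8. At 10 CPM, Prtn3 was held by 1, 2, 9 and 12 cells, Ctsg by 0, 0, 3 and 10, Elane by 1, 1, 1 and 10 and Ms4a3 by 0, 0, 2 and 9. At that level Elane was thus found in the lowest bin, as was Prtn3, and Ctsg from the third bin on. Depth did not rank the bins, with median totals of 1866320, 2038500, 1983250 and 1830370 counts, while the median number of genes read was 6614, 6839, 6663 and 7240. Over cells, the rho of Mpo with total counts was −0.06 and with genes read 0.16.

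**Figure D2:**
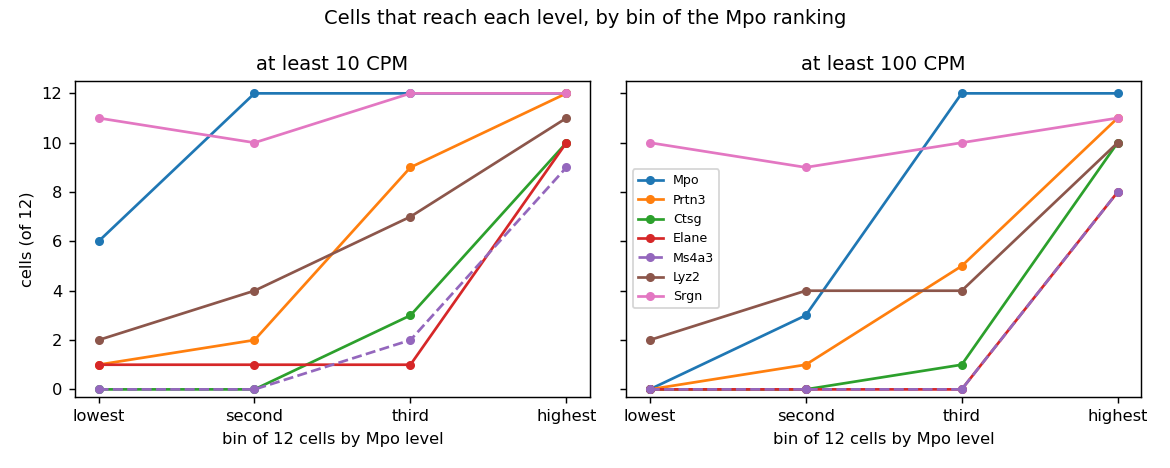
Number of cells, of 12 in each bin of the Mpo ranking, that hold each gene at 10 CPM (left) or 100 CPM (right). At 100 CPM Prtn3 enters in the second bin with 1 cell, Ctsg in the third with 1, and Elane and Ms4a3, whose lines coincide, in the highest with 8 each, while Srgn is held by 9 to 11 cells in every bin.

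The granule genes were nested in the cells. At 100 CPM, 8 cells held all 5, 2 held Mpo, Prtn3 and Ctsg, 6 held Mpo and Prtn3, 10 held Mpo alone and 20 held none. The order Mpo, Prtn3, Ctsg, then Elane with Ms4a3 thus described 46 of 48 cells. The 2 exceptions were a cell with Ctsg and no Prtn3 at that level and a cell with 162 CPM of Prtn3 and 42.4 CPM of Mpo. The order was taken from the counts of these same cells, so the fit is a description. The 20 cells with none and the 8 with all 5 fit any order, and the 10 with Mpo alone any that starts with Mpo. Of the cells that followed, only the groups of 6 and 2 bear on the order after Mpo. At 10 CPM Elane and Ctsg were level at 13 cells each, and the order of counts was taken with Elane first. In that order 41 of 48 cells followed and 7 did not. Of those 7, 3 held Ctsg without Elane, 1 held Ctsg and Ms4a3 without Elane, 1 Ms4a3 without either, and 2 held Elane with no Prtn3, at 17.03 and 13.6 CPM from 7 and 26 reads. With Ctsg first, the 3 cells with Mpo, Prtn3 and Ctsg would follow the order. The 2 cells with Mpo, Prtn3 and Elane would break it. Genes whose levels are lower reach a fixed limit in fewer cells, and with the limit at 5% of each gene's own highest level 2 cells again broke the order, with Prtn3 now before Mpo.

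The granule reads were also set against those of Mpo in 3 classes of cells. In the 30 cells with Mpo under 1000 CPM the highest Elane level was 17.03 CPM and the highest Ctsg level 37.7 CPM. In the 11 cells with 1000 to 10000 CPM of Mpo, Prtn3 had a median of 484 CPM (67.5 to 1114) and was held by 11 at 10 CPM. Elane had a median of 3.69 CPM there (0 to 790), with 3 cells at 10 CPM. In the 7 cells above, Prtn3 had a median of 1158 CPM (291 to 3730) and Elane of 1690 CPM (647 to 10892). Per 100 reads of Mpo, the median cell had 5.56 reads of Prtn3 in the lowest class, 13.2 in the middle and 4.83 in the upper class. For Elane it had 4.49, 0.214 and 6.66 reads. Neither ratio moved in 1 direction along the 3 classes. In the lowest class the median levels were near the floor, 2.29 CPM for Prtn3 and 1.22 CPM for Elane. Their ratios ran from 0 to 382 and from 0 to 175 there, so the medians of that class are uncertain.

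**Figure D3:**
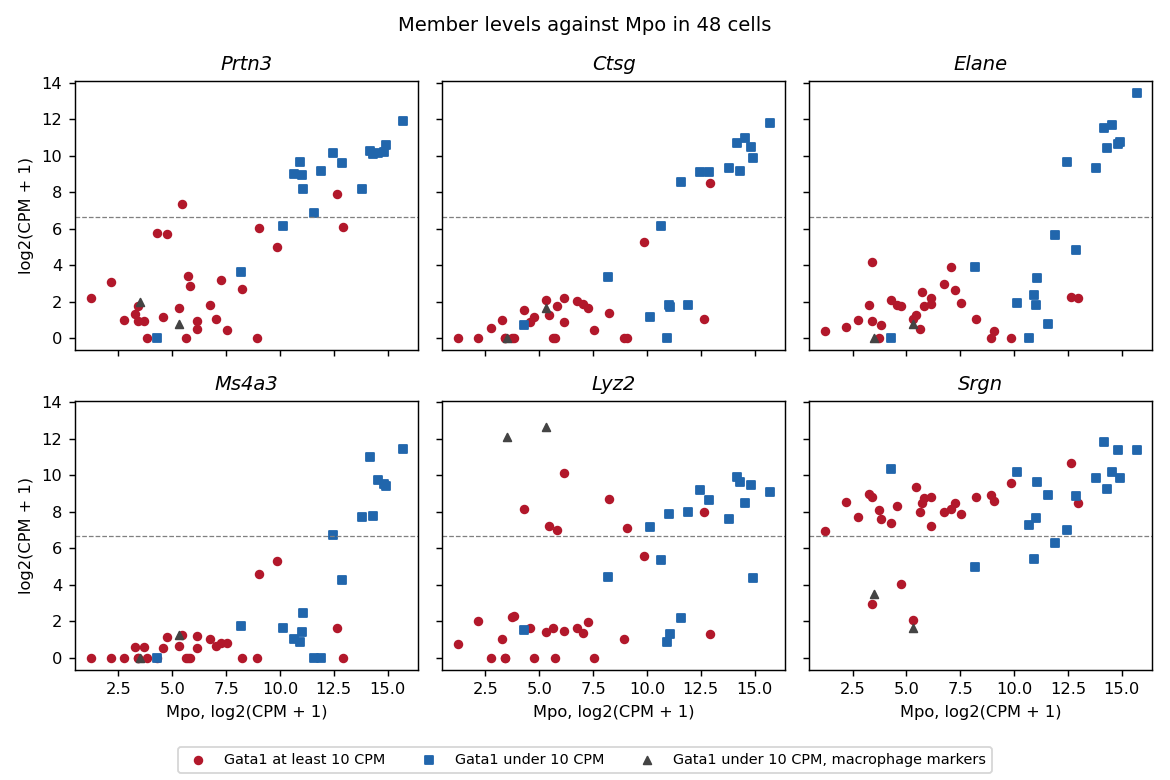
Level of 6 members against Mpo in 48 cells, both as log2(CPM + 1), with a dashed line at 100 CPM; marks show cells with Gata1 of at least 10 CPM, the others, and the 2 macrophage-rich cells. Prtn3 passes the line in 17 cells, Ctsg in 11, Elane and Ms4a3 in 8 each, while Lyz2 and Srgn pass it at low Mpo levels too.

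Among all genes, the other 4 granule genes were close to Mpo. Spearman's rho with Mpo over 48 cells, which share library depth, was 0.77 for Prtn3, 0.75 for Ctsg, 0.69 for Ms4a3 and 0.63 for Elane. It was 0.50 for Srgn, 0.47 for Lyz2 and 0.44 for Lyz1, so 4 of 7 members were at 0.5 or more, against 1.44% of 8600 other genes. Without the macrophage-rich cells Lyz1 and Lyz2 had 0.56 and 0.59, and 6 of 7 members were at 0.5 or more. Ranked among the 8600 genes by rho, Prtn3 was in place 4, Ctsg in 5, Ms4a3 in 18 and Elane in 40. Of the proteases, Elane had 0.62 with Prtn3, its neighbour on the chromosome, and 0.62 with Ctsg on another, while Prtn3 and Ctsg had 0.66.

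Leaving out the members, the genes most like each granule gene were partly shared. Nearest to Mpo were Plac8, a small myeloid protein (0.85), Serpinb1a, an inhibitor of the 3 granule proteases (0.80), BC035044 (0.79), the surface glycoprotein Cd52 (0.75) and Igfbp4, which binds insulin-like growth factors (0.75). Near to Prtn3 were Igfbp4 (0.80), the membrane glycoprotein Emb (0.78), BC035044 (0.76) and Plac8 (0.73). Ctsg had BC035044 (0.78), the lipid flippase Atp8b4 (0.74), Emb (0.71), Plac8 (0.71) and F630028O10Rik (0.68). Ms4a3 had the tetraspanin Cd53 (0.70), Emb (0.68), Serpinb1a (0.65), Gpc1 (0.65) and Atp8b4 (0.64). Elane shared none of these and had the transcription factor Tfec (0.69), annexin Anxa1 (0.65), the glutamate receptor subunit Gria3 (0.64), the lectin receptor Clec5a (0.64) and B4galnt1 (0.63). Plac8 averaged 817 ± 675 CPM in the 18 cells with Mpo of at least 1000 CPM and 37.03 ± 121 CPM in the other 30, and Serpinb1a 750 ± 580 and 13.9 ± 45.8 CPM (SD over cells).

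Other proteins of the granules were read to a part. Of 15 genes of primary granules and their processing, 12 passed the filter on low values. Of these 12, Serpinb1a, Plac8, Cst7 and Rab27a were at a rho of 0.5 or more with Mpo, against 1.44% of all genes. The list's median rho was 0.31, against 0.01 over all genes. Ctsc, the dipeptidyl peptidase that activates the proteases, had a rho of −0.14, reached 10 CPM in 20 cells and averaged 134 ± 345 CPM in the 18 cells rich in Mpo and 258 ± 609 CPM in the other 30. Prss57, a serine protease of the same granules, reached 10 CPM in 6 cells, all with at least 1000 CPM of Mpo. Bpi and Vamp7 were listed at 0 in all 48 cells.

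Of 16 genes of secondary and tertiary granules, which are filled later, 9 were read in at least 1 cell. Ltf, Lcn2, Ngp, Chil3, Mmp9, Cd177 and Retnlg, 7 of 16, had no read in any cell (43.8%, against 41.3% of all genes in the table), so up to 6.25% of cells could hold a read by a limit of 3 cells in 48. Camp reached 10 CPM in 1 cell, at 525 CPM, and S100a8 in 2, with 4914 CPM in the highest. Cybb, a subunit of the oxidase, was read in 22 cells and reached 10 CPM in 6, at up to 2345 CPM. Hp and Pglyrp1 reached 10 CPM in 7 cells each, all with at least 1000 CPM of Mpo, and had rho values of 0.51 and 0.52 with it. Of the 16 genes 4 passed the filter on low values. Among these 4, Hp and Pglyrp1 were at a rho of 0.5 or more, against 1.44% of all genes. They averaged 124 and 94.9 CPM in the 18 cells with at least 1000 CPM of Mpo, and 0.371 and 0.137 CPM in the other 30. They thus passed the filter only through the cells rich in Mpo, so a positive rho was likely beforehand and the count is a description.

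The regulators of granule genes ranged from commonly to seldom read. Myb, a factor of early progenitors, reached 10 CPM in 45 cells, Runx1 in 32, Cbfb, its partner subunit, in 22 and Spi1, which encodes PU.1, in 12. Gfi1, a repressor needed for neutrophil formation, reached 10 CPM in the 3 cells of highest Mpo, at 257, 172 and 688 CPM in the order of rising Mpo, and in no other cell. Irf8, which drives monocyte fate, reached 100 CPM in 7 cells, of which 4 were among the 8 that held all 5 granule genes, 2 were among the other 10 cells with Mpo of at least 1000 CPM, and 1 was macrophage-rich. Cebpa, an early factor of granulocyte fate, reached 10 CPM in 4 cells, each with at least 3025 CPM of Mpo, and Cebpe, the factor of secondary granules, in 1. Of the 12 regulators, 9 passed the filter and Cebpa alone was at a rho of 0.5 or more with Mpo (0.61). The share of all genes at that rho was 1.44%. Cebpa averaged 14.9 CPM in the 18 cells with Mpo of at least 1000 CPM and 0.370 CPM in the other 30. It thus passed the filter only through the cells rich in Mpo.

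Lyz2, the lysozyme of macrophages and neutrophils, was high in some cells with little Mpo too. It ran from 0 through a median of 11.8 CPM to 6452 CPM and reached 100 CPM in 20 cells. Its median was 3.75 CPM without the macrophage-rich cells, and its rho with Mpo was then 0.59, against 0.62 for Elane. The 2 macrophage-rich cells held 4269 and 6452 CPM, next to 10.3 and 38.7 CPM of Mpo, and the highest of the other 46 cells held 1093 CPM. The cell with 1093 CPM also held 338 CPM of C1qb, 336 CPM of Gata1 and 69.9 CPM of Mpo. Across the bins of Mpo, 2, 4, 4 and 10 of 12 cells reached 100 CPM of Lyz2. Nearest to it by rho were the adaptor Tyrobp (0.75), the Fc receptor chains Fcer1g (0.66) and Fcgr3 (0.66), Cd53 (0.65) and the actin bundler Lcp1 (0.63).

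Lyz1, known in mice mainly from Paneth cells of the gut, was read in step with Lyz2. Their rho was 0.92 over 48 cells, and 0.91 without the macrophage-rich cells. In the 24 cells with at least 10 CPM of Lyz2 the ratio of Lyz1 to Lyz2 reads had a median of 0.134 and ran from 0.101 to 0.432. It was 0.136 in the 8 of these cells with Gata1 of at least 10 CPM and 0.132 in the other 16, medians that differed by less than the spread between cells (SD 0.0671 and 0.0893). Their reading frames had 425 of 447 aligned bases in common (95.1%), and 16.1% of the stretches of 50 bases of the Lyz1 transcript were also in Lyz2. How reads that match both genes were counted is not given in the sources used here, so the Lyz1 values are uncertain, and the part of shared reads in the ratio was not tested. The 120 bases before both starts, shown because the pair moved together, differed at 9 positions, which are in capitals.
Lyz1 (chr10:117292869-117292988, minus strand): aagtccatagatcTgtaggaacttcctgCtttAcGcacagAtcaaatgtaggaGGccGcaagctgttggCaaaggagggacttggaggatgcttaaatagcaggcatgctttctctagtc
Lyz2 (chr10:117282273-117282392, minus strand): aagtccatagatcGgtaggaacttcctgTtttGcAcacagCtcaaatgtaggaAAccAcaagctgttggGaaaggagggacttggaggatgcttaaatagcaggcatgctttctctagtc

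**Figure D4:**
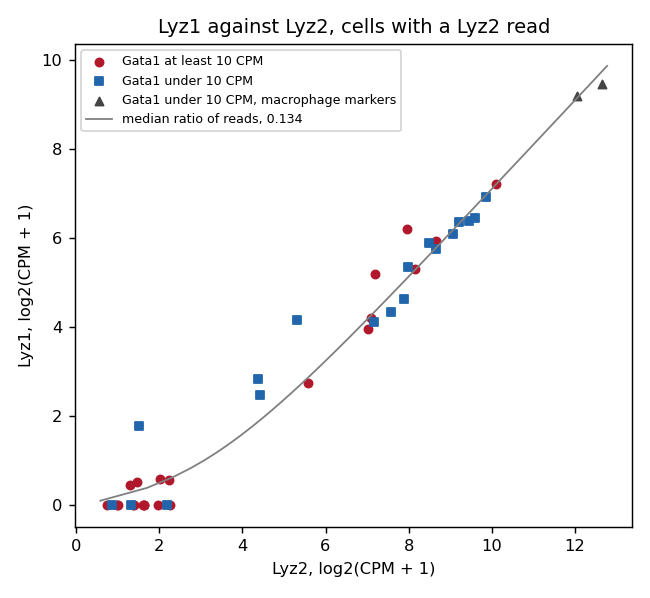
Lyz1 against Lyz2 in the 42 cells with a read of Lyz2, both as log2(CPM + 1), with the line of the median ratio of reads, 0.134. Cells with Gata1 of at least 10 CPM, the others and the 2 macrophage-rich cells lie along the same line at high levels.

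Srgn was read throughout the ranking. It was read in all 48 cells, from 2.08 CPM through a median of 353 CPM to 3660 CPM, and 40 cells held 100 CPM. Across the bins of Mpo its median was 240, 266, 417 and 925 CPM, and 10, 9, 10 and 11 of 12 cells reached 100 CPM. Both macrophage-rich cells were low, with 10.3 and 2.08 CPM. Its nearest genes were the nucleosome protein Hmgn2 (0.60), the receptor subunit Ramp1 (0.57), calponin Cnn2 (0.55), Pcbd1 (0.55) and S100a11 (0.53).

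In the 28 cells with Gata1 of at least 10 CPM, Mpo and Srgn were commonly read and the proteases seldom. Mpo reached 10 CPM in 22 of 28 cells (78.6%, 95% Clopper-Pearson interval 59.0 to 91.7%), against all of the other 20, and 1000 CPM in 2 of 28, against 16 of 20. Srgn reached 100 CPM in 25 of 28 cells, against 15 of 20. Prtn3 reached 10 CPM in 7 of 28 cells (25%, interval 10.7 to 44.9%), against 17 of 20 (85.0%, interval 62.1 to 96.8%). Elane, Ctsg and Ms4a3 reached it in 2 of 28 cells each (interval 0.877 to 23.5%), against 11, 11 and 9 of 20. At 100 CPM Elane and Ms4a3 were held by 0 of 28 cells, so that up to 10.7% could hold it by a limit of 3 cells in 28, against 8 of 20 each. Ctsg was held by 1 of 28 and Prtn3 by 2 of 28 at that level, against 10 and 15 of 20.

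Levels differed accordingly. Mpo ran from 1.32 through 50.6 to 7904 CPM in the Gata1 cells (lowest, median, highest), and from 10.3 through 3455 to 53282 CPM in the others. Prtn3 ran from 0 through 2.50 to 237 CPM in the Gata1 cells, and from 0 through 539 to 3730 CPM in the others. Elane ran from 0 through 2.37 to 17.03 CPM in the Gata1 cells, and from 0 through 20.7 to 10892 CPM in the others. The ranges overlapped for each of these genes, since some cells of low Gata1 held little of them. Lyz2 had a median of 2.07 CPM and a highest level of 1093 CPM in the Gata1 cells, and a median of 245 CPM in the others. Srgn had medians of 333 CPM in the Gata1 cells and 539 CPM in the others.

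The mean was at least 4-fold lower in the Gata1 cells for 7 of 8 members, against 10.7% of all genes past the filter. Elane and Ms4a3 averaged under 5 CPM in the Gata1 cells, so they passed the filter only through the other cells. A lower mean was thus likely beforehand for Elane and Ms4a3, and the count is a description. Elane averaged 3.00 ± 3.90 CPM in the 28 cells and 1161 ± 2500 CPM in the 20 (SD over cells), a ratio of 0.00258, and Ms4a3 2.59 ± 8.21 and 378 ± 745 CPM, a ratio of 0.00684. The ratio was 0.0245 for Ctsg, 0.0347 for Prtn3, 0.0572 for Mpo, 0.113 for Lyz2, 0.143 for Lyz1 and 0.413 for Srgn. A single cell of low Gata1, that of highest Mpo, held 46.9% of their summed Elane CPM, and without it the Elane ratio was 0.00463. Without the macrophage-rich cell of highest Lyz2 the ratio of Lyz2 was 0.180. A single Gata1 cell held 84.6% of their summed Ctsg CPM and 44.97% of their summed Mpo CPM, and without it the ratios were 0.00392 for Ctsg and 0.0326 for Mpo. Without the highest Gata1 cell of each gene the ratio was 0.00333 for Ms4a3, 0.0661 for Lyz2 and 0.0923 for Lyz1. Without the macrophage-rich cells 5 of 8 members were 4-fold lower, with ratios of 0.311 for Lyz2 and 0.374 for Lyz1. This drop rests on the Gata1 cell of highest Lyz2, with 338 CPM of C1qb and 43.5% of their summed Lyz2 CPM. Without it as well, Lyz2 averaged 52.6 CPM in the Gata1 cells and 289 CPM in the others. Lyz1 averaged 9.15 and 37.8 CPM, so both were again past the 4-fold limit. With the limit at 1 CPM of Gata1, which puts 36 cells on the Gata1 side, only Prtn3 of the 8 was 4-fold lower. The 8 cells that this moves include both macrophage-rich cells and the cell of highest Mpo, which held 1.69 CPM of Gata1 from 3 reads.

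**Figure D5:**
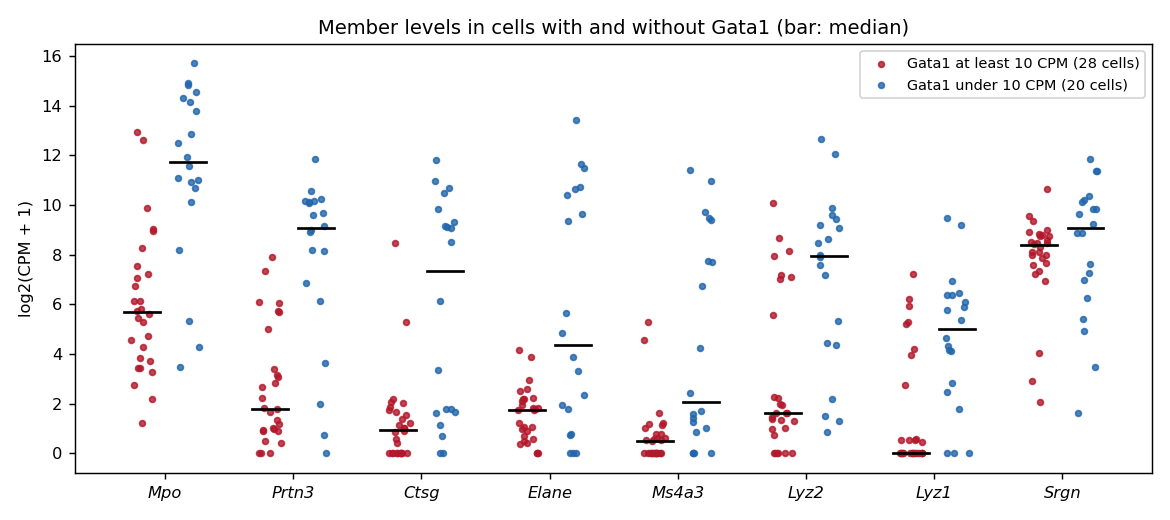
Level of each member as log2(CPM + 1) in the 28 cells with Gata1 of at least 10 CPM (left of each pair) and in the 20 others (right); points are cells and bars medians. The medians of Mpo are 50.6 and 3455 CPM and those of Srgn 333 and 539 CPM, and Elane stays at 17.03 CPM or less in the Gata1 cells.

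Low Mpo levels were also found in the macrophage-rich cells, taken here as cells that should lack granule genes. They held none of the other 4 granule genes above 2.93 CPM and had 10.3 and 38.7 CPM of Mpo, both above the limit of 10 CPM. Of the 28 Gata1 cells, 16 were above 38.7 CPM and 12 were at or below it. Whether Mpo at such levels comes from the cell itself was not tested. For Prtn3 13 of 28 were above the macrophage-rich cells' highest level of 2.93 CPM, for Ctsg 8 above 2.08 CPM, for Ms4a3 3 above 1.38 CPM and for Elane 20 above 0.692 CPM. Thinned to 246007 counts, the lowest total of any cell, the Gata1 cells reached 10 CPM of Prtn3 in 11 of 28 and of Elane in 3 of 28, where 10 CPM is only a few reads.

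Beyond Mpo, 9 of 28 Gata1 cells held at least 1 of Elane, Prtn3, Ctsg and Ms4a3 at 10 CPM (32.1%, interval 15.9 to 52.4%), against 17 of 20 other cells. Prtn3 was the commonest of them, in 7 of the 9. The 2 Gata1 cells richest in Mpo differed in what they carried with it. The first, with 6329 CPM of Mpo and 811 CPM of Gata1, held 237 CPM of Prtn3, 248 CPM of Lyz2, 1602 CPM of Srgn, and 1.06 CPM of Ctsg. The second, with 7904 CPM of Mpo and 53.7 CPM of Gata1, held 358 CPM of Ctsg and 67.5 CPM of Prtn3, and 1.45 CPM of Lyz2. Elane was at 3.69 and 3.63 CPM in them, while the cell of low Gata1 with 5709 CPM of Mpo held 790 CPM.

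Cells with little Mpo could also hold Prtn3. Among the Gata1 cells, 1 held 162 CPM of Prtn3 with 42.4 CPM of Mpo, and 2 held 52.9 and 50.9 CPM with 18.4 and 25.7 CPM of Mpo. Gata1 was 382, 769 and 1077 CPM in these 3 cells. The 9 cells had a median of 2268000 counts and 6688 genes read, against 2063270 counts and 6907 genes in the other 19 Gata1 cells, so their median number of genes was not higher. No doublet caller was run, and the part of 2 cells in 1 chamber was not tested.

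The ranges of erythroid genes overlapped between the 9 cells and the other 19, while the medians of Car2, Klf1 and Gfi1b were lower in the 9. Car2, a carbonic anhydrase high in the erythroid path, ran from 0.528 through a median of 242 to 2348 CPM in the 9, and from 51.9 through 1247 to 2964 CPM in the 19. Klf1 ran from 0 through a median of 8.10 to 464 CPM in the 9, and from 0 through 77.4 to 484 CPM in the 19. It reached 10 CPM in 4 of 9 and 12 of 19 cells. Gfi1b ran from 0 through 23.8 to 915 CPM in the 9, and from 0.541 through 188 to 939 CPM in the 19. Gata1 had medians of 429 CPM in the 9 and 311 CPM in the 19. Over all 48 cells, 6 of 13 erythroid genes were at a rho of −0.5 or less with Mpo, Gata1, Klf1, Gfi1b, Car2, Blvrb and Cpox, against 0.372% of all genes, and their list had a median of −0.46. The mean was at least 4-fold higher in the Gata1 cells for 9 of the 13, against 9.29% of all genes. Gata1, 1 of the 9, was higher by the rule that made the sets. Klf1, Epor, Rhd, Cpox and Zfpm1 averaged under 5 CPM in the other cells, so they passed the filter only through the Gata1 cells. Likewise Klf1, Blvrb and Cpox, among the 6 of negative rho, passed it only through the cells with Mpo under 1000 CPM. Both counts are descriptions.

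In the Gata1 cells, Lyz2 reached 100 CPM in 7 of 28. Of these 7 cells 4 held a granule gene beyond Mpo at 10 CPM, against 5 of the 21 with less Lyz2. Of the 11 other cells with 100 CPM of Lyz2 that were not macrophage-rich, 11 held such a gene. Whatever their Lyz2, 17 of all 18 other cells that were not macrophage-rich held one, so these 11 show no link to Lyz2. The summed macrophage markers were at most 386 CPM in the 7 cells, with a median of 0, and at most 5.41 CPM in the 11.

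Markers of other cells moved in part with the 2 sets, and their part in the results was not tested. The 11 macrophage genes in the table summed to 0 to 2533 CPM in the Gata1 cells and to 0 to 56220 CPM in the others, and the 9 monocyte genes to 0 to 279 and 0 to 11178 CPM. In the 18 cells with Mpo of at least 1000 CPM these sums were at most 24.2 and 820 CPM. The 9 mast cell and basophil genes, with Prss34, Fcer1a and Gzmb at 0, summed to 0.480 to 2293 CPM (median 3.33) in the Gata1 cells and 0.611 to 1879 CPM (median 143.7) in the others, with a median of 297 CPM in the cells rich in Mpo. The 6 eosinophil genes, with Epx at 0, summed to 0 to 17.5 and 0 to 329 CPM. The 7 megakaryocyte genes, with Ppbp at 0, summed to 0 to 545 and 0 to 543 CPM. Over 6 lymphoid genes, with Prf1 and Gzma at 0, the sum was 0 to 1318 CPM (median 1.30) in the Gata1 cells and 0 to 1729 CPM (median 189.8) in the others, with a median of 202 CPM in the cells rich in Mpo. Cd3e, Cd79a and Il7r were at most 0.960, 1.84 and 4.86 CPM, so the high values of the lymphoid sum were those of Nkg7. The 5 hepatoblast genes, with Ttr at 0, summed to 0 to 614 and 0.413 to 7132 CPM. Alb, Afp and Apoa1 were at most 0.419, 4.87 and 2.22 CPM, so the high values of the hepatoblast sum were those of Trf. Of the granule proteases of other cells, Gzma, Gzmb, Gzmc and Mcpt4 were at 0 in all cells, as was Cfd, the neighbour of Elane on chromosome 10, while Mcpt8 and Cma1 reached 10 CPM in 1 cell each.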

How the data were processed

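RNA of 48 mouse fetal liver cells of 1 group was amplified by SMART-Seq in a Fluidigm C1 system whose chambers were inspected for a cell, per the labels' protocols, and 96 libraries were pooled. The submitters' processing notes name mm10, TopHat2 2.0.12, Subread and featureCounts 1.4.6. The deposited raw counts are whole numbers per gene. The deposited log2 values equal log2 of the count over a DESeq size factor, plus 1, within 1e-06. Columns are run codes matching no title, so cells carry only their group.

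CPM used TMM library sizes (edgeR 4.0.16, factors 0.419 to 1.70, R 4.3.3), and plots a pseudocount of 1. Other steps used Python 3.11.15 with pandas 2.3.3, scipy 1.17.1 and Biopython 1.88, and were tested on simulated data. Positions and exon lengths are from GENCODE for GRCm38, promoters from RefSeq. A gene counted as held by a cell at 10 CPM, and likeness was Spearman's rho. With 1 sample no test was made. Alternatives used total counts, DESeq2 1.42.0 size factors, thinning, other limits and fewer cells.

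Members and lists were chosen with earlier results of these data known. Named genes were the members, the 5 nearest genes of the granule genes, Lyz2 and Srgn, and list genes. A near gene of Prtn3 and a marker gene are not reported here. Adgre1 was not analysed here.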

Additional observations from a re-analysis of the deposited data

How the results depend on the processing

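Counts of members and cells were recomputed under other normalizations, thinning, limits and sets of cells. The number of cells that break the nested order was 7 at 10 CPM with Elane set before Ctsg, and 2 both at 100 CPM and at 5% of each gene's highest level. It was 4 to 9 under the other 9 settings, and Ctsg preceded Elane with DESeq2 size factors and without the 5 cells of lowest total count. The Gata1 cells that hold a granule gene beyond Mpo numbered 9 of 28. They were 27 at 1 read, 22 at 1 CPM and 3 at 100 CPM, against 20, 19 and 15 of the 20 others. Thinning gave 14 of 28. The members that follow Mpo numbered 4, and 7 at a rho limit of 0.3 (7.41% of all genes) and 2 at 0.7 (0.163%). The members 4-fold lower in Gata1 cells numbered 7 (10.7% of all genes), and 1 at a Gata1 limit of 1 CPM (5.05%). Of the 7, Elane and Ms4a3 passed the filter only through the cells of low Gata1. The other 10 settings at 4-fold gave 5 to 7, beside 2.87 to 19% of all genes. A limit of 2-fold gave 8 (23.2%) and of 10-fold 5 (4.8%). Leaving out the cell of highest Mpo, of all or of the Gata1 cells, was chosen after seeing the data and kept each of these 4 counts within 1 of its main value. Of the 35 nearest-gene pairs, 17 to 34 were kept under 8 settings, with fewest for Pearson's r, and 19 without the macrophage-rich cells. Of 40 medians of members under 5 settings, 10 moved by over 1.5-fold. That of Prtn3 was 16.2 CPM with DESeq2 size factors. Thinning gave 16.3 CPM for Prtn3, 4.06 for Ctsg, 18.3 for Lyz2 and 0 for Ms4a3 and Lyz1. Without the macrophage-rich cells they were 21.1 for Prtn3, 1.47 for Lyz1 and 3.75 for Lyz2, and without the 5 shallowest cells 3.78 for Lyz2. Depth limits low levels, since 10 CPM is a few reads in the shallowest cell. No paired analysis was possible because all cells belong to 1 group.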
